A study of Arabidopsis thaliana with 42 samples.

Results

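The 9 genes described here encode proteins of chlorophyll synthesis in Arabidopsis thaliana. They were chosen as a list of loci, by no threshold on their values but with earlier results of these data known. They are HEMA1 (AT1G58290), GUN4 (AT3G59400), CHLH (AT5G13630), CHLM (AT4G25080), CRD1 (AT3G56940), PORA (AT5G54190), PORB (AT4G27440), PORC (AT1G03630) and CAO (AT1G44446). All 9 are among the 34262 features of an RNA-seq table and all 9 passed the filter on low values. The 12 RNA libraries came from total RNA of Col-0 seedlings aged 14 days and harvested at ZT-6, with 2 libraries in each of 6 groups: arp6vil1 at 22 °C, arp6 at 22 °C, vil1 at 27 °C, vil1 at 22 °C, wild type (WT) at 27 °C and WT at 22 °C. The vil1 allele is given as vil1-1, no allele is named for arp6, and the day length of the RNA samples is not given, as the labels mention both long and short days. The VIL1 protein, also called VRN5, carries a PHD finger and works with PRC2, the Polycomb complex that sets the repressive mark H3K27me3. The ARP6 protein belongs to SWR1, a remodelling complex that places the histone variant H2A.Z in chromatin.

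Chlorophyll is made in the plastid from glutamate, through 5-aminolevulinic acid and protoporphyrin, where the path divides into a magnesium branch to chlorophyll and an iron branch to haem. HEMA1 is the main glutamyl-tRNA reductase and sets the flow into the pathway, CHLH is the large porphyrin-binding subunit of magnesium chelatase, and GUN4 is not an enzyme itself but a porphyrin-binding activator of that chelatase. CHLM methylates magnesium protoporphyrin, CRD1 is a subunit of the cyclase that closes the extra ring, the POR enzymes reduce protochlorophyllide in a step that needs light, and CAO makes the b form of the pigment. In seedlings, PORA is known for its abundance in the dark and its loss in light, PORB for its presence in both, and PORC for its dependence on light.

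Levels are in RPKM, reads divided by gene length and by the depth of the library. The length the authors used was the whole gene from start to end, introns included, so a level compares genes per base of gene, not per base of mRNA. Depth was 52475562 to 102794390 reads per library. The arp6 and arp6vil1 libraries stood apart from the other 8. In arp6, 6651 and 6566 features were at 0, against 104 to 194 in the other 10 libraries. In arp6vil1, genes of the chloroplast genome took 17.04 and 14.94% of summed RPKM, against 4.07 to 7.64% elsewhere, and the median coding gene lay at 1.943 and 1.794 RPKM, against 3.339 to 4.972 in the other 10. The ARP6 transcript averaged 0.756 ± 0.0584 RPKM in arp6vil1, 0.303 ± 0.135 in arp6 and 14.01 ± 0.557 in WT at 22 °C (SD, n = 2 each). The VIL1 transcript averaged 5.26 ± 0.178 RPKM in vil1 at 22 °C and 6.69 ± 0.0221 in WT (adjusted p = 0.0669), so its level does not check the vil1 label. Of 4 genes that mark green tissue, 4 were at 1 RPKM or more in each library, and their sum ran from 4327.0 to 7146.2 RPKM, lowest in arp6vil1 and highest in vil1 at 22 °C. Of 12 genes that mark root cells, none was at 0, and their sum was at least 76.2 RPKM in both arp6 libraries, against 26.4 to 53.3 in the other libraries.

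**Figure D1:**
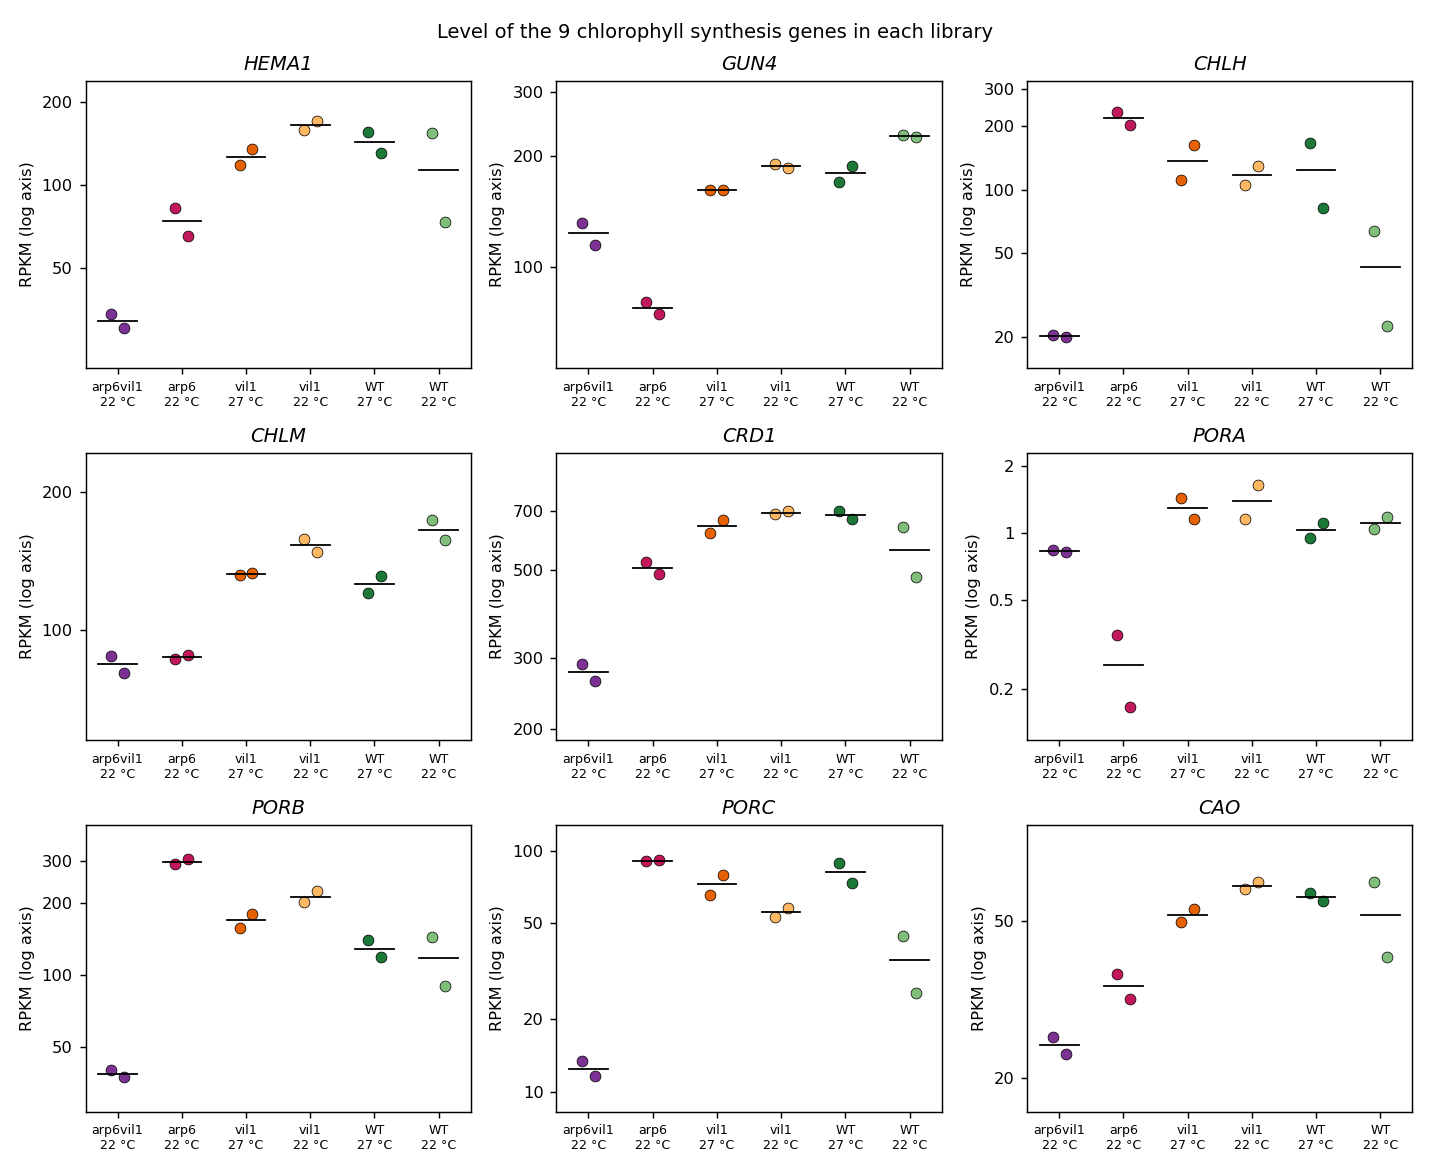
Level of each gene in RPKM (log axis) in the 12 libraries; points are libraries and lines are means of 2. CHLH, PORB and PORC were highest in arp6 and lowest in arp6vil1, while GUN4 was lowest in arp6.

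HEMA1 had 34.1 and 30.3 RPKM in arp6vil1, 82.5 and 65.3 in arp6, 118.0 and 134.7 in vil1 grown at 27 °C, 158.8 and 170.3 in 22 °C vil1, 155.3 and 130.9 in WT grown at 27 °C, and 153.9 and 73.5 in 22 °C WT. The arp6vil1 libraries lay below all others, and the lower WT library at 22 °C lay between the pair of arp6 libraries. The vil1 libraries at 22 °C were highest, and the remaining groups overlapped. GUN4 had 131.7 and 115.1 RPKM in arp6vil1, 80.4 and 74.3 in arp6, 162.3 and 161.9 in vil1 grown at 27 °C, 190.4 and 186.1 in 22 °C vil1, 170.5 and 188.8 in WT grown at 27 °C, and 228.9 and 225.3 in 22 °C WT. Its order was WT at 22 °C highest, then vil1 at 22 °C and WT at 27 °C, which overlapped, vil1 at 27 °C, arp6vil1 and arp6. GUN4 shares 946 of its 1296 bases with GCN2, a kinase gene at the same locus, and no source here says that reads were counted by strand. GCN2 itself averaged 15.5 RPKM in arp6vil1, 12.02 in arp6 and 29.1 in WT at 22 °C, and reads of the shared stretch cannot be told apart.

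CHLH, listed in the gene table as GUN5, had 20.4 and 19.95 RPKM in arp6vil1, 233.7 and 202.2 in arp6, 111.5 and 162.2 in vil1 grown at 27 °C, 105.1 and 129.8 in 22 °C vil1, 165.7 and 81.7 in WT grown at 27 °C, and 63.6 and 22.5 in 22 °C WT. As a fold, this was the widest range among the 9 genes, and the arp6 libraries lay above all others. WT at 27 °C and both vil1 groups overlapped, WT at 22 °C lay below them, and arp6vil1 was lowest. The gene was also the least even within a group, since WT libraries of 1 temperature differed by 1.5 (22 °C) and 1.02 (27 °C) on the log2 scale. CHLM had 88.01 and 80.8 RPKM in arp6vil1, 86.5 and 88.2 in arp6, 132.4 and 133.1 in vil1 grown at 27 °C, 158.2 and 148.6 in 22 °C vil1, 120.6 and 131.3 in WT grown at 27 °C, and 174.2 and 157.3 in 22 °C WT. The arp6vil1 and arp6 libraries overlapped and lay below the other 8, where WT and vil1 at 22 °C also overlapped above both 27 °C groups. CRD1, the most abundant of the 9 per base, had 290.5 and 263.0 RPKM in arp6vil1, 522.8 and 485.9 in arp6, 617.8 and 662.9 in vil1 grown at 27 °C, 686.7 and 697.8 in 22 °C vil1, 698.1 and 667.5 in WT grown at 27 °C, and 640.1 and 479.8 in 22 °C WT. Only arp6vil1 stood clear of the rest in CRD1, as the lower WT library at 22 °C lay below both arp6 libraries. The values of vil1 at 22 °C fell within those of WT at 27 °C. CRD1 shares 259 of its 1939 bases with the non-coding gene AT3G08795 and 147 with the coding gene AT3G56950. The latter was also lower in arp6vil1, by 0.63 against WT and 0.4 against arp6 on the log2 scale. Its part in the CRD1 values was not tested. Shorter overlaps with other genes, of 36 to 121 bases, were found for CAO, CHLM, PORB and PORC.

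PORA had 0.838 and 0.823 RPKM in arp6vil1, 0.348 and 0.166 in arp6, 1.43 and 1.16 in vil1 grown at 27 °C, 1.15 and 1.63 in 22 °C vil1, 0.951 and 1.11 in WT grown at 27 °C, and 1.04 and 1.18 in 22 °C WT. Among coding genes these levels stood at percentiles 11 to 30.7, and the 10th percentile was 0.66 to 1.14 RPKM in 10 libraries and 0 in both arp6 libraries. The arp6 libraries were lowest, then arp6vil1, and the other groups overlapped. Its reads were 0.0561 to 2.27% of those of its relative PORB, and nothing in the sources says how reads that fit several POR genes were counted. PORB had 39.8 and 37.4 RPKM in arp6vil1, 290.8 and 305.1 in arp6, 157.5 and 181.1 in vil1 grown at 27 °C, 202.7 and 224.1 in 22 °C vil1, 139.8 and 118.5 in WT grown at 27 °C, and 144.9 and 90.1 in 22 °C WT. The order was arp6, vil1 at 22 °C, vil1 at 27 °C, then the WT groups, which overlapped, and arp6vil1. PORC, written POR C in the gene table, had 13.4 and 11.6 RPKM in arp6vil1, 90.6 and 91.7 in arp6, 65.8 and 79.6 in vil1 grown at 27 °C, 53.3 and 57.9 in 22 °C vil1, 89.2 and 73.8 in WT grown at 27 °C, and 44.5 and 25.7 in 22 °C WT. Both 27 °C groups overlapped each other and lay above the 22 °C groups of their genotype, below arp6.

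CAO, listed as CH1, had 25.4 and 23.01 RPKM in arp6vil1, 36.6 and 31.7 in arp6, 49.8 and 53.6 in vil1 grown at 27 °C, 60.3 and 62.6 in 22 °C vil1, 58.7 and 56.2 in WT grown at 27 °C, and 62.6 and 40.6 in 22 °C WT. Its arp6vil1 and arp6 libraries lay below the other 8, in that order, and the WT pair at 22 °C spanned the other 3 groups. Over the group means, CAO and CRD1 had the most similar patterns of any pair among the 9 (root mean square difference 0.14 on the log2 scale over 6 groups), and CHLH and GUN4 the least similar (1.39). The WT pair at 22 °C was uneven in a patterned way: HEMA1, CHLH, CRD1, PORB, PORC and CAO were higher in replicate 1, by 0.42 to 1.5 on the log2 scale, while GUN4 and CHLM differed by 0.02 and 0.15. This pair is the WT side of each comparison with arp6, arp6vil1 and vil1 at 22 °C, so those comparisons are not independent.

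Changes were estimated with limma on log2(RPKM + 1) over the 31454 features that reached 1 RPKM in 2 libraries, with an adjusted p under 0.05 as the threshold. A fold on this scale understates the change of a gene near 1 RPKM. Nothing in the labels says that the libraries of a group came from separate cultures, so the p-values measure the spread between these libraries, which may be technical. The RNA is that of seedlings in bulk, and fewer cells of a type cannot be told apart from less RNA per cell. The scale of the libraries also mattered: the median of all tested features was -0.64 in arp6 over WT and -0.54 in arp6vil1 over WT. Quantile normalization brings these medians to 0.01 and to about 0, and median centring of each library to -0.27 and 0.30. The arp6 and arp6vil1 libraries stood apart as a whole, so their genotypes cannot be told apart from that library difference.

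In arp6 seedlings, CHLH, PORB and PORC rose and GUN4, CHLM, PORA and CAO fell. These were 7 of the 9 genes, and 82.3% of all tested features passed the same threshold in this comparison, so the number called is near the background, with 20.6% called higher and 61.8% lower. In a fit to features with a mean of 5 RPKM or more, 79.2% were called, 4542 higher and 6301 lower of 13695. CHLH averaged 218.0 ± 22.3 RPKM in arp6 and 43.03 ± 29.1 in WT (SD, n = 2 each), a log2 change of 2.49 (SE 0.42, adjusted p = 0.000299). PORB averaged 298.0 ± 10.1 RPKM in arp6 and 117.5 ± 38.8 in WT, a change of 1.37 (SE 0.18, adjusted p = 6.19e-05). PORC averaged 91.2 ± 0.782 RPKM in arp6 and 35.1 ± 13.3 in WT, a change of 1.4 (SE 0.21, adjusted p = 0.00012). In all 3 genes the arp6 libraries lay above both WT libraries, and each rise held under quantile normalization, median centring, removal of a gene length trend and a read-based fit (limma voom).

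GUN4 fell by 1.54 in arp6 on the log2 scale (SE 0.09, adjusted p = 4.93e-07), to 77.4 ± 4.32 RPKM, against 227.1 ± 2.53 in WT. The overlapping GCN2 also fell (by 1.21, adjusted p = 1.29e-06), and its part in the GUN4 change was not tested. CHLM fell by 0.91 (SE 0.09, adjusted p = 8.31e-06), to 87.4 ± 1.15 RPKM, against 165.8 ± 11.9 in WT. Both falls passed under all 10 other settings, the smallest being -0.97 for GUN4 and -0.54 for CHLM. CAO fell by 0.55 (SE 0.16, adjusted p = 0.00934), but its call was lost under median centring (-0.18), with the arp6 and WT libraries alone (-0.55), and without WT replicate 1 (-0.25) or arp6 replicate 2 (-0.45). PORA fell by 0.75 (SE 0.14, adjusted p = 0.000647) as deposited and had the opposite sign under quantile normalization (0.36), at a level of 37 and 17 reads in arp6. HEMA1 (-0.53, SE 0.27, adjusted p = 0.0883) and CRD1 (-0.14, SE 0.13, adjusted p = 0.346) did not pass, with arp6 libraries overlapping those of WT. Without WT replicate 2 both passed as lower (-1.06 and -0.34).

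**Figure D2:**
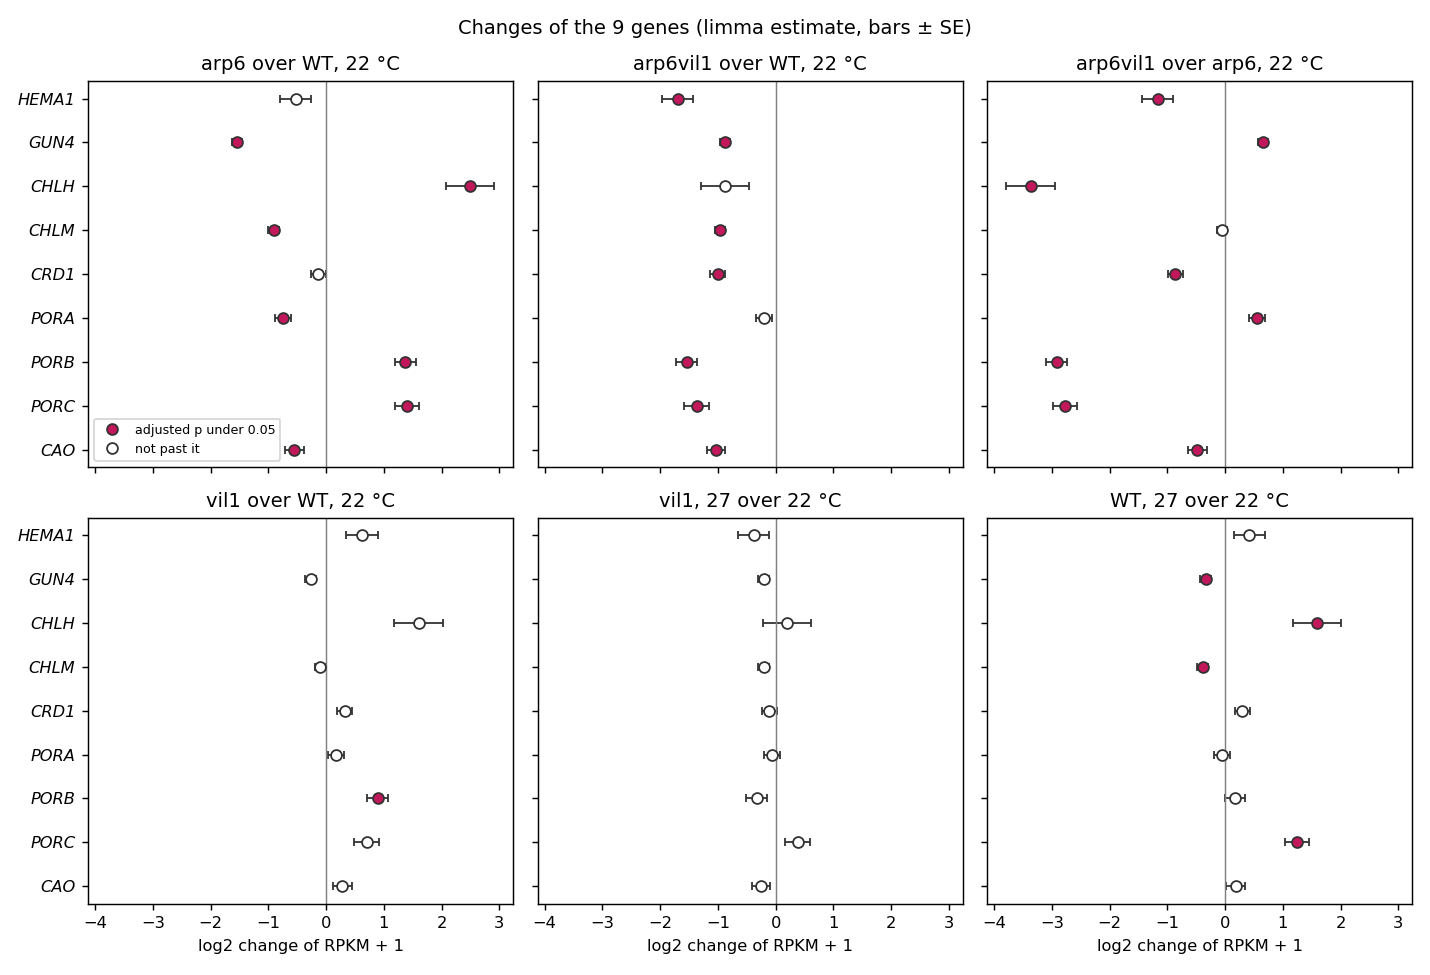
Log2 change of RPKM + 1 (limma estimate, bars ± SE) of the 9 genes in 6 comparisons; filled points passed an adjusted p under 0.05. CHLH, PORB and PORC were higher in arp6 over WT and lower in arp6vil1 over arp6, and 4 genes passed in WT at 27 over 22 °C. In arp6 over WT, the filled point of PORA has the opposite sign under quantile normalization, and so has that in arp6vil1 over arp6; the filled point of CAO in arp6vil1 over arp6 has the opposite sign when a gene length trend is removed.

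Against arp6, arp6vil1 was lower most in PORB, PORC and CHLH; the same arp6 libraries, high in these genes, are on the other side of arp6 over WT. In this comparison 8 of the 9 passed, 2 higher and 6 lower, where 79.1% of all tested features were called (41.1% higher, 38% lower). In a fit to features with a mean of 5 RPKM or more, 82.4% were called, 3685 higher and 7594 lower of 13695. PORB fell by 2.92 on the log2 scale (SE 0.18, adjusted p = 1.95e-07), to 38.6 ± 1.68 RPKM in arp6vil1, against 298.0 ± 10.1 in arp6. PORC fell by 2.77 (SE 0.21, adjusted p = 6.52e-07), to 12.5 ± 1.25 RPKM, against 91.2 ± 0.782. CHLH fell by 3.37 (SE 0.42, adjusted p = 3.65e-05), to 20.2 ± 0.284 RPKM, against 218.0 ± 22.3. These 3 falls passed under all 10 other settings tried, the smallest change being -2.44 for PORB, -2.30 for PORC and -1.51 for CHLH, the last with the gene length trend removed.

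GUN4 went the other way and rose by 0.66 in arp6vil1 over arp6 (SE 0.09, adjusted p = 9.4e-05), to 123.4 ± 11.7 RPKM, against 77.4 ± 4.32, and this held under all 10 other settings. GCN2 rose as well, by 0.34 (adjusted p = 0.00459). CRD1 fell by 0.86 (SE 0.13, adjusted p = 0.000143), and passed under all 10 other settings (-1.24 to -0.39). HEMA1 fell by 1.17 (SE 0.27, adjusted p = 0.00234), but did not pass with median centring (-0.69) or the length trend removed (-0.37). CAO fell by 0.48 (SE 0.16, adjusted p = 0.0208), rose by 0.48 with the length trend removed, and did not pass with quantile normalization (-0.14), with median centring, or without arp6 replicate 1 (-0.38) or arp6vil1 replicate 2 (-0.41). CHLM was at 88.01 and 80.8 RPKM in arp6vil1 and 86.5 and 88.2 in arp6 and did not pass (-0.05, adjusted p = 0.617), though it passed as higher with median centring (0.42) and with the length trend removed (0.22). PORA rose by 0.55 (SE 0.14, adjusted p = 0.00525), but was lower under quantile normalization (-0.22) and did not pass without arp6 replicate 2 (0.44).

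Against WT at 22 °C, 7 of the 9 fell in arp6vil1, where 66.1% of all tested features were called (4.91% higher, 61.2% lower), so this count too is near the background. HEMA1 fell most, with a log2 change of -1.70 (SE 0.27, adjusted p = 0.000222), to 32.2 ± 2.63 RPKM in arp6vil1, against 113.7 ± 56.9 in WT. PORB fell by 1.54 (adjusted p = 3.16e-05) and PORC by 1.37 (adjusted p = 0.000174). The falls of CAO, CRD1, CHLM and GUN4 were -1.03, -1.0, -0.96 and -0.88 as log2 changes. CHLH (-0.88, SE 0.42, adjusted p = 0.0897) and PORA (-0.20, adjusted p = 0.23) did not pass, and CHLH passed without WT replicate 2 (-1.61). With each library centred on its median, the calls of GUN4 (-0.03), PORC (-0.52), CAO (-0.19), CHLM (-0.12) and CRD1 (-0.16) were lost, HEMA1 (-0.85) and PORB (-0.70) still passed, and PORA was called higher (0.64).

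Against vil1 at 22 °C, 9 of the 9 were lower in arp6vil1, where 58% of features were called (7.16% higher, 50.8% lower). In a fit to features with a mean of 5 RPKM or more, 80.9% were called, 1583 higher and 9493 lower of 13695. The changes were -2.48 for CHLH, -2.44 for PORB, -2.32 for HEMA1, -2.07 for PORC, -1.32 for CRD1, -1.31 for CAO, -0.86 for CHLM, -0.61 for GUN4 and -0.38 for PORA. HEMA1, CHLH, PORB, PORC, CAO and CRD1 passed under all 10 other settings, with smallest changes of -1.57 for HEMA1, -1.37 for CHLH, -1.7 for PORB, -1.33 for PORC, -0.49 for CAO and -0.59 for CRD1. GUN4 had the opposite sign with median centring (0.12), as did PORA with median centring (0.35) and with the length trend removed (0.12), and the call of CHLM was lost with median centring (-0.12). The call of PORA was also lost without any 1 of 7 libraries.

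The effect of arp6 in vil1 plants, arp6vil1 over vil1, was set against its effect in plants with VIL1, arp6 over WT, by a test of the difference. The difference passed in 7 of the 9, with 75.2% of all features called (42.5% higher, 32.7% lower). In a fit to features with a mean of 5 RPKM or more, 79% were called, 3870 higher and 6948 lower of 13695, with a median of -0.41. The difference was -4.97 for CHLH (SE 0.60, adjusted p = 3.71e-05), -3.81 for PORB (SE 0.26, adjusted p = 8.77e-07) and -3.47 for PORC (SE 0.29, adjusted p = 2.97e-06), whose signs were opposite in the 2 backgrounds. With the length trend removed the difference was -2.61 for CHLH, -0.84 for HEMA1 and 0.60 for GUN4, each still past the threshold. As deposited it was -1.79 for HEMA1 (SE 0.38), -1.18 for CRD1 (SE 0.18) and -0.76 for CAO (SE 0.23), but 0.40 for CAO with the length trend removed. GUN4 alone of the 9 had a positive difference that passed, 0.93 (SE 0.13, adjusted p = 0.000129), since its fall was smaller in vil1 plants. The overlapping GCN2 had a positive difference too (0.59, adjusted p = 0.0015), and its part was not tested. CHLM (0.06, SE 0.13, adjusted p = 0.682) and PORA (0.37, SE 0.20, adjusted p = 0.118) did not pass.

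**Figure D3:**
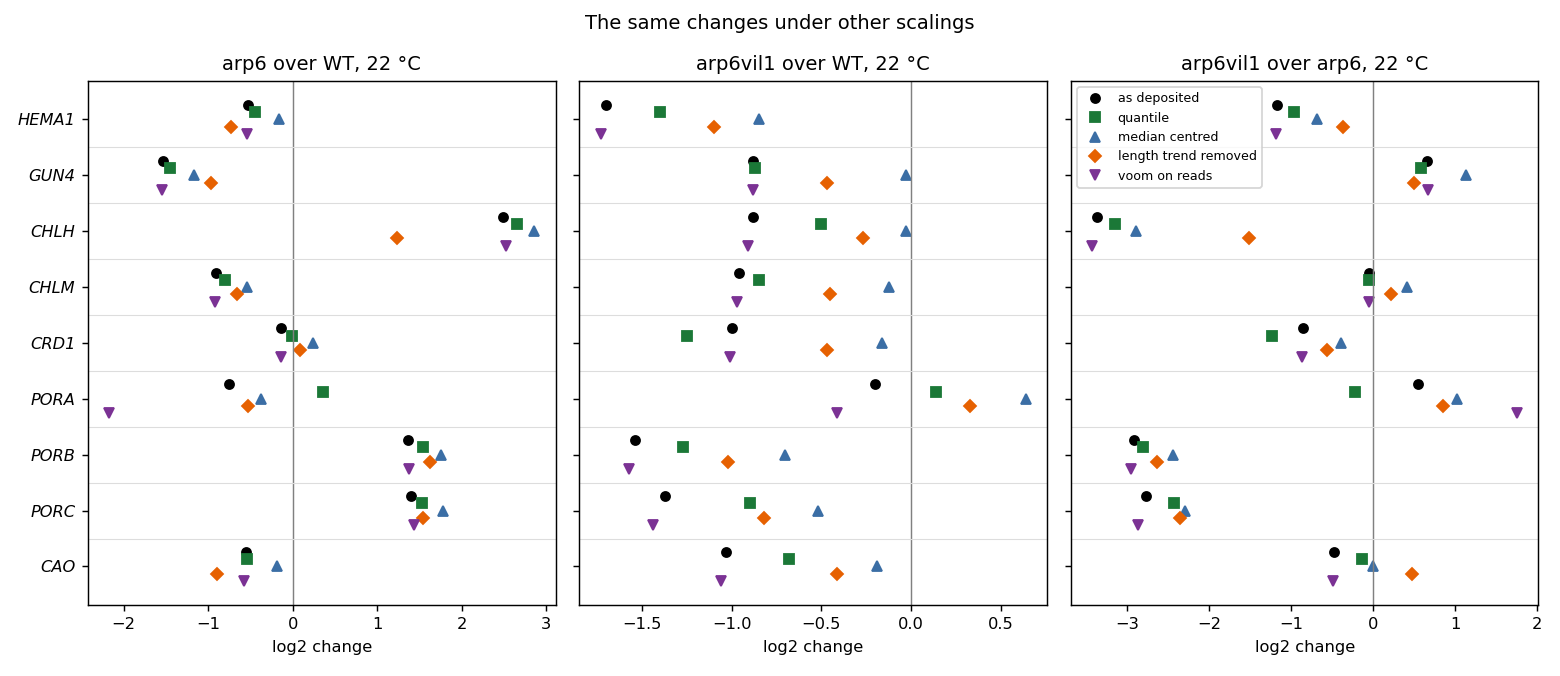
Log2 change of the 9 genes in arp6 over WT, arp6vil1 over WT and arp6vil1 over arp6, as deposited and under 4 other scalings or fits. CHLH, PORB and PORC kept their sign under each of them in all 3 comparisons, while PORA changed sign in each and CAO and CHLM in arp6vil1 over arp6. In arp6vil1 over WT, CHLH was not past the threshold as deposited, and over the other settings its change came as near 0 as -0.03. CRD1, not past the threshold, lay on both sides of 0 in arp6 over WT.

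A ratio of genes within a library is not changed by 1 scaling factor per library, though quantile normalization and removal of a length trend can change it. PORB over CHLM was 0.452 and 0.463 in arp6vil1, 3.36 and 3.46 in arp6, 1.19 and 1.36 in vil1 grown at 27 °C, 1.28 and 1.51 in 22 °C vil1, 1.16 and 0.903 in WT grown at 27 °C, and 0.832 and 0.573 in 22 °C WT. PORC over CHLM was 0.152 and 0.144 in arp6vil1, 1.05 and 1.04 in arp6, and 0.256 and 0.163 in WT at 22 °C. The arp6 libraries thus had the highest POR to CHLM ratios and arp6vil1 the lowest, with no overlap with WT at 22 °C in either. With 2 libraries a group, an exact permutation test of such a ratio cannot give a p below 0.333, so none was run.

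The split among the 3 POR genes did not follow their sum. Summed POR was 54.01 and 49.9 RPKM in arp6vil1, 381.8 and 397.0 in arp6, and 190.5 and 117.0 in WT at 22 °C. PORC made up 24.8 and 23.4% of that sum in arp6vil1, 23.7 and 23.1% in arp6, and 23.4 and 22% in WT at 22 °C, with overlapping values. The 27 °C groups differed: PORC held 29.3 and 30.4% in vil1 at 27 °C, against 20.7 and 20.4% in vil1 at 22 °C. In WT it held 38.8 and 38.2% at 27 °C, against 23.4 and 22% at 22 °C. PORA held 0.0418 to 1.65% in all 12 libraries.

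**Figure D4:**
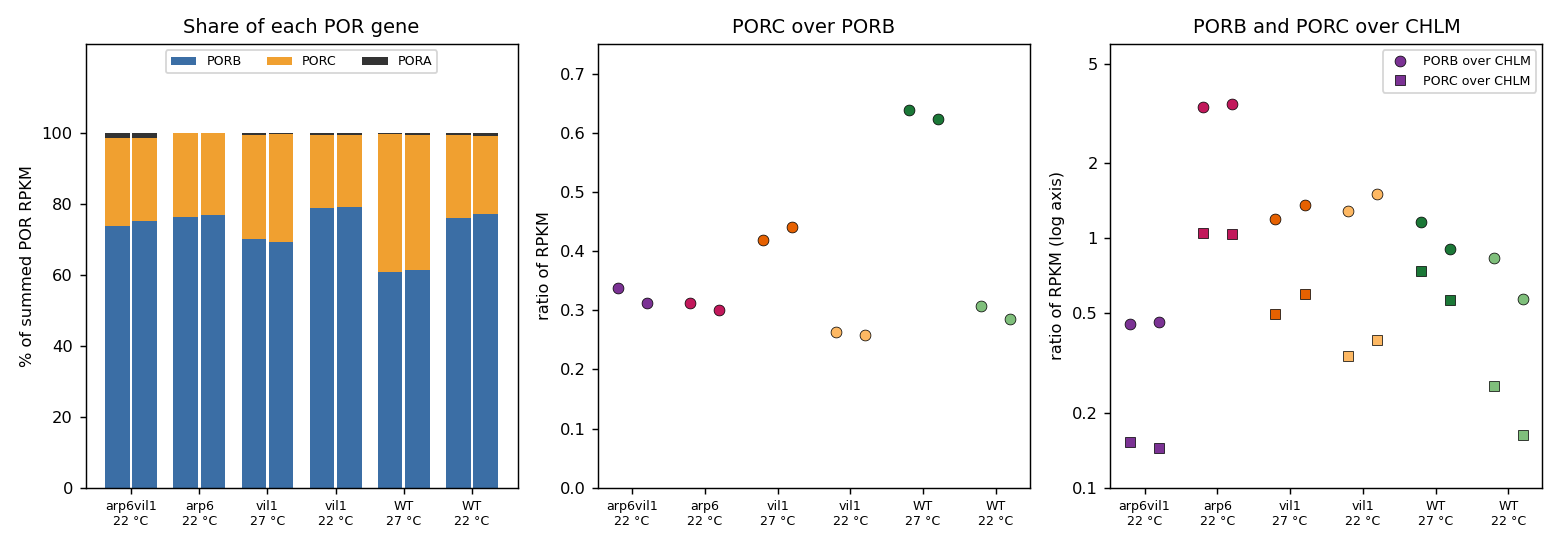
Left, share of PORB, PORC and PORA in summed POR RPKM, 1 bar per library; middle, ratio of PORC to PORB; right, ratios of PORB and PORC to CHLM (log axis). PORC over PORB was 0.638 and 0.623 in WT at 27 °C, against 0.307 and 0.285 in WT at 22 °C, and 0.418 and 0.44 in vil1 at 27 °C, against 0.263 and 0.258 in vil1 at 22 °C.

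In WT seedlings at 27 °C, PORC and CHLH rose and CHLM and GUN4 fell, 4 of the 9, where 20.6% of all tested features were called (16.9% higher, 3.61% lower). In a fit to features with a mean of 5 RPKM or more, which leaves out PORA, 43.9% were called. The count of 4 of the 9 is near that share. PORC averaged 81.5 ± 10.8 RPKM at 27 °C and 35.1 ± 13.3 at 22 °C, a log2 change of 1.24 (SE 0.21, adjusted p = 0.00422), which passed under all 11 other settings and without each library in turn (0.85 to 1.62). CHLH averaged 123.7 ± 59.4 RPKM at 27 °C and 43.03 ± 29.1 at 22 °C, a change of 1.59 (SE 0.42, adjusted p = 0.0241). Its call was lost with the length trend removed (0.98), with quantile normalization (1.62), with median centring (1.4), with the WT libraries alone (1.59), with the WT and vil1 libraries alone (1.59), and without replicate 2 at 22 °C (0.86) or replicate 1 at 27 °C (1.09). CHLM fell by 0.39 (SE 0.09, adjusted p = 0.0135), to 125.9 ± 7.5 RPKM at 27 °C, against 165.8 ± 11.9 at 22 °C, and passed under 10 of 11 other settings. GUN4 fell by 0.34 (SE 0.09, adjusted p = 0.0296), to 179.6 ± 12.98 RPKM, against 227.1 ± 2.53, a call lost without any 1 of 7 libraries.

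HEMA1, PORB, CAO, CRD1 and PORA did not pass at 27 °C in WT, with changes of 0.42, 0.17, 0.18, 0.30 and -0.06. The count depended on the WT libraries: it was 7 without replicate 1 at 22 °C (21.9% of all features called), 2 without replicate 2 at 22 °C (11.6%) and 1 without replicate 1 at 27 °C (6.6%). In the first of these HEMA1 (0.95), PORB (0.51), CAO (0.49) and CRD1 (0.51) passed as higher. Among the 4 green tissue markers, RCA (0.71, adjusted p = 0.0166) and SBPASE (0.58, adjusted p = 0.0226) also rose in WT at 27 °C, but neither passed with median centring (0.52 and 0.39) or with the length trend removed (0.39 and 0.41), and their part in the changes of the 9 genes was not tested.

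In vil1 seedlings, 0 of the 9 passed between 27 and 22 °C with limma, where 2.4% of all features were called (1.94% higher, 0.461% lower), and 2 had an unadjusted p under 0.05. Those 2 were GUN4 (-0.21) and CHLM (-0.21), both with lower values at 27 °C in each library. HEMA1, PORB, CAO and CRD1 were also lower at 27 °C in each library, and PORC was higher. With 2 libraries a group, unchanged groups separate in this way with a probability of 0.333. The share of all features that did so was not counted, so no response is read from it. PORC averaged 72.7 ± 9.78 RPKM at 27 °C and 55.6 ± 3.29 at 22 °C (0.38, SE 0.21, adjusted p = 0.405). CHLH averaged 136.9 ± 35.9 RPKM at 27 °C and 117.4 ± 17.5 at 22 °C (0.20, SE 0.42, adjusted p = 0.85). The voom fit also called 0, and a fit to the vil1 libraries alone called HEMA1 (-0.38, adjusted p = 0.0394) and GUN4 (-0.21, adjusted p = 0.045). The difference between the vil1 and WT responses passed in 0 of the 9 with limma, and in 0% of all features. An unadjusted p under 0.05 was found in 3, CHLH (-1.39, SE 0.60), PORC (-0.86, SE 0.29) and CRD1 (-0.41, SE 0.18), and voom called 0. Without WT replicate 1 at 22 °C, where 5.79% of all features were called, 6 of the 9 passed, HEMA1 (-1.33), CHLH (-2.12), PORB (-0.84), PORC (-1.25), CAO (-0.74) and CRD1 (-0.62), so that call rests on which WT library is kept.

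Between vil1 and WT at 22 °C, PORB rose, 1 of the 9, where 4.1% of all features were called (2.15% higher, 1.95% lower). In a fit to features with a mean of 5 RPKM or more, 17.9% were called. PORB averaged 213.4 ± 15.2 RPKM in vil1 and 117.5 ± 38.8 in WT, a log2 change of 0.89 (SE 0.18, adjusted p = 0.036). CHLH (1.60, SE 0.42, adjusted p = 0.0579) and PORC (0.70, SE 0.21, adjusted p = 0.0751) did not pass, though in both the vil1 libraries lay above those of WT, and both passed with voom and with the length trend removed. The count moved with the share of all features called. It was 6 without WT replicate 1 at 22 °C (28.6% of features), 2 without WT replicate 1 or 2 at 27 °C (5.04 and 5.07%) and 0 without WT replicate 2 at 22 °C (0.304%). It was also 0 without any 1 of the vil1, arp6 and arp6vil1 libraries (0.0955 to 1.74%), and with the WT and vil1 libraries alone (0.484%). RCA (0.99, adjusted p = 0.0225) and SBPASE (0.65, adjusted p = 0.0458) of the green tissue markers were higher in vil1 too, and their part was not tested. At 27 °C, 0 of the 9 passed between vil1 and WT with limma, where 0.922% of features were called (0.337% higher, 0.585% lower), 0 had an unadjusted p under 0.05, and voom called 0. The changes there ran from -0.18 for HEMA1 to 0.39 for PORB.

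Gene length moved with several of these comparisons. The gene spans of the 9 run from 1295 bases in GUN4 to 5122 in CHLH. Among coding genes with a mean of 10 RPKM or more, the median change in arp6 over WT was -0.48 for 3348 genes under 2000 bases, 0.15 for 3220 genes from 2000 to under 4000 bases and 1.13 for 436 genes of 4000 bases or more. CHLH, in the longest class, lay above its class median at 2.49, and PORB (1894 bases) and PORC (2127 bases) lay above theirs at 1.37 and 1.4. In arp6vil1 over arp6 the class medians ran from 0.12 through -0.71 to -1.73, and in the difference of arp6 effects from 0.29 through -0.86 to -2.26. In WT at 27 over 22 °C they ran from -0.07 through 0.25 to 0.62. The same gradient separated the WT libraries at 22 °C, with -0.14, 0.12 and 0.35 in replicate 1 over replicate 2. With a length trend removed from each library, CHLH stayed higher in arp6 over WT (1.24, adjusted p = 0.00301) and lower in arp6vil1 over arp6 (-1.51, adjusted p = 0.000796).

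**Figure D5:**
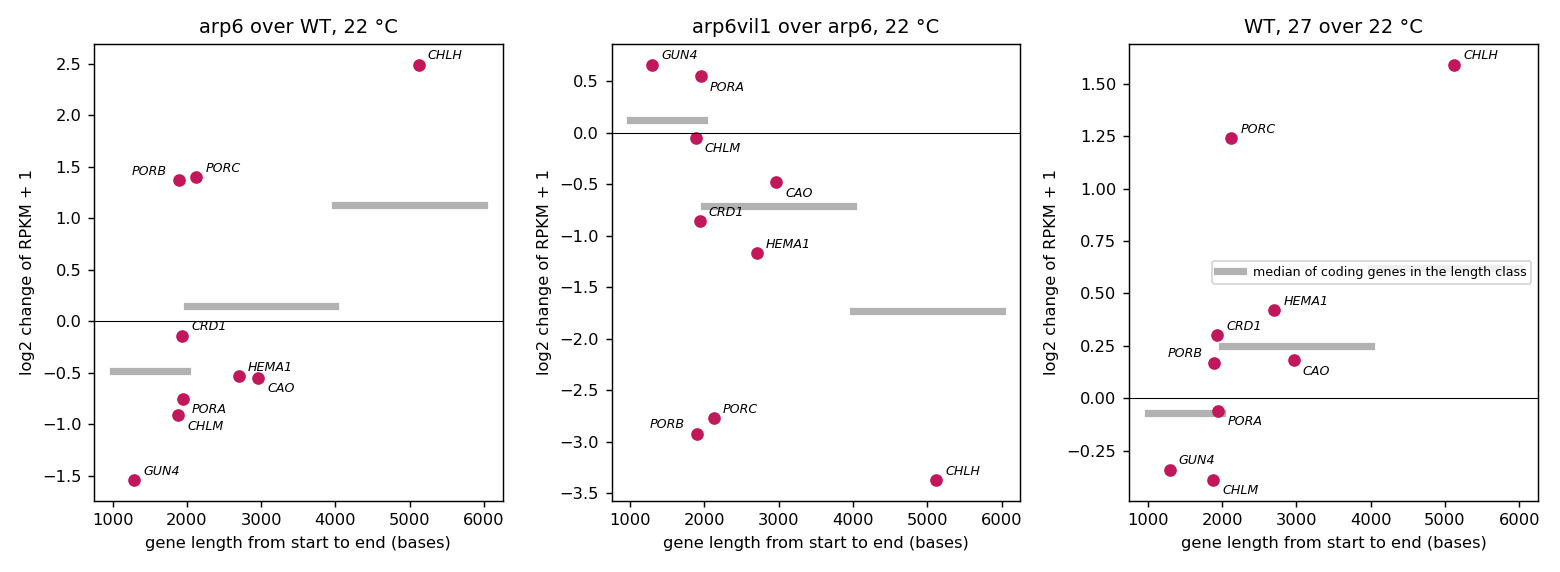
Log2 change of RPKM + 1 of the 9 genes against gene length in bases, in arp6 over WT, arp6vil1 over arp6 and WT at 27 over 22 °C; grey bars are medians of coding genes under 2000, from 2000 to under 4000, and 4000 bases or more. CHLH, the longest at 5122 bases, lay beyond its class median in each, and PORB and PORC lay far from the medians around 2000 bases in the first 2. The signs of PORA in the first 2 panels turn under quantile normalization, and those of CAO and CHLM in the second with the length trend removed.

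The other genes of the pathway were read from lists. In arp6 over WT, the 10 other genes of the chlorophyll branch had a median of 0.57. Over all features it was -0.64, and over those with a mean of 5 RPKM or more it was -0.17. Of these 10 genes 6 rose and 0 fell, and with the length trend removed 6 rose and 2 fell. Among them were DVR, which reduces the divinyl group (57.5 ± 0.11 RPKM in arp6 and 23.99 ± 9.31 in WT, log2 change 1.28, adjusted p = 0.000159), and NYC1, a chlorophyll b reductase (0.94). CHLD, another magnesium chelatase subunit, rose as deposited (0.81) but had a change of -0.27 with the length trend removed. Of 14 other tested genes from glutamate to protoporphyrin, 5 rose and 2 fell. The largest rises were GSA2 (71.6 ± 2.58 RPKM in arp6 and 22.2 ± 7.23 in WT, 1.68) and GSA1 (1.45), which make 5-aminolevulinic acid. The 18 antenna genes, whose proteins bind chlorophyll, all fell in arp6, with a median of -1.08, though 9 passed under quantile normalization. Several LHCB genes are near-identical copies among which reads may be split, so single values are uncertain. LHCB2.3 averaged 79.3 ± 8.97 RPKM in arp6 and 656.3 ± 41.4 in WT (-3.04, adjusted p = 1.58e-08). Summed antenna RPKM was 38182.0 and 36045.7 in arp6, against 83918.9 and 85540.0 in WT at 22 °C.

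Of 13 regulators of greening 5 were higher and 6 lower in arp6, with a median of -0.27, where 20.6% of all features were called higher and 61.8% lower. FHY3, a transcription factor that activates chlorophyll synthesis genes, rose (16.1 ± 0.173 RPKM in arp6 and 4.06 ± 0.368 in WT, 1.76, adjusted p = 8e-06), by 0.85 with the length trend removed. The chloroplast regulators GLK2 (-1.48), GNC (-1.54) and CGA1 (-1.32) fell. Of 8 chlorophyll breakdown genes 1 rose and 6 fell, among them SGRL (-1.30). Their median of -0.62 is near the -0.64 of all features and below the -0.17 of those with a mean of 5 RPKM or more. Of 9 haem, bilin and sirohaem genes and pathway brakes 3 rose and 0 fell, among them GBP (0.87), with a median of -0.04. Among the root markers, IRT1 (2.37) and NRT2.1 (2.09), an iron and a nitrate transporter, rose in arp6. The root markers SMB (-0.92) and WOX5 (-0.84) fell as deposited but had changes above 0 under quantile normalization (0.24 and 0.24). Of the 12 root markers 3 rose and 3 fell, and their part in the changes of the 9 genes was not tested. Of the 4 green tissue markers 0 passed with limma and 0 with voom, 0 had an unadjusted p under 0.05, and 3 were called higher with median centring.

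In arp6vil1 over arp6, where 41.1% of all features were called higher and 38% lower, most genes of the synthesis lists fell. In a fit to features with a mean of 5 RPKM or more, 3685 of 13695 were called higher and 7594 lower, with a median of -0.43. Of the 10 other chlorophyll branch genes 0 rose and 8 fell, with a median of -1.27, against 0.12 over all features, and 6 to 8 fell under the other 4 scalings and fits. DVR (-2.09) and CHLP, which makes the phytyl side chain (112.1 ± 8.37 RPKM in arp6vil1 and 320.3 ± 16.7 in arp6, -1.51), were among them. Of 14 other tested genes from glutamate to protoporphyrin 1 rose and 12 fell, with GSA2 at -2.10 and GSA1 at -1.67. Of 13 regulators 2 rose and 10 fell, with a median of -0.92. FHY3 fell (-2.41, and -0.87 with the length trend removed) and GLK2 rose (1.61, to 91.6 ± 6.9 RPKM in arp6vil1, against 29.3 ± 2.62 in arp6). Of 9 genes of the haem, bilin and sirohaem list 0 rose and 7 fell, and of 8 chlorophyll breakdown genes 4 rose and 4 fell. Of the antenna genes 11 rose and 4 fell (median 0.35), but under quantile normalization 4 rose and 10 fell, so no direction can be given for that list. Of the 4 green tissue markers 0 rose and 2 fell, SBPASE (-0.73) and GAPB (-0.27), and GAPB had changes above 0 with median centring (0.20) and with the length trend removed (0.42).

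Against WT, where 61.2% of all features were called lower, arp6vil1 was lower in most genes of 5 lists: 12 of 14 from glutamate to protoporphyrin, 8 of 10 of the chlorophyll branch, 8 of 9 of the haem, bilin and sirohaem list, 11 of 13 regulators and 17 of 18 antenna genes fell, and 1 gene of these lists, an antenna gene, rose. With median centring 2 of 14, 1 of 10, 1 of 9, 5 of 13 and 4 of 18 fell, so these counts rest on the scaling. Most genes of the chlorophyll breakdown list were lower as deposited too, 6 of 8, with 0 higher and a median of -0.45. In WT at 27 over 22 °C, 16 of the 18 antenna genes fell and 1 rose (median -0.83, against 0.09 over all features), and 5 fell and 0 rose under quantile normalization. Summed antenna RPKM was 44542.6 and 45469.1 in WT at 27 °C, against 83918.9 and 85540.0 at 22 °C. In vil1 10 of 18 fell and 0 rose (2 fell under quantile normalization), with sums of 46151.3 and 46268.8 RPKM at 27 °C, against 71246.8 and 67518.7 at 22 °C. Of the 10 other chlorophyll branch genes 3 rose in WT at 27 °C, with DVR (1.02) passing under the 4 other scalings and fits, and 6 of 14 genes from glutamate to protoporphyrin rose, among them GSA2 (0.75), but 2 rose and 2 fell with the length trend removed and 0 were called with median centring. Of 13 regulators 6 rose and 2 fell, where 16.9% of all features were called higher and 3.61% lower. In a fit to features with a mean of 5 RPKM or more, 4783 of 13695 were called higher and 1225 lower. FHY3 (0.72), GUN1 (0.70) and FAR1 (0.56) were among those that rose and GLK2 (-0.54) among those that fell. With the length trend removed 1 regulator rose and 2 fell, and under quantile normalization or median centring 0 rose and 2 fell.

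For each of the 9, the 2 features with the most similar pattern of group means were found among 5605 candidates, by the root mean square difference of log2 values over 6 groups after centring. The nearest to HEMA1 was PKS2 (0.099), followed by PIL6 (0.151), and the nearest to GUN4 were ATL6 (0.061) and SIP4 (0.07). CHLH lay farther from its nearest, XYL1 (0.185) and cpHsc70-1 (0.188), as did PORB from SKIP and ARF2 (both 0.199). PORC lay near ATH13 (0.063) and RH39 (0.124), PORA near FTRA1 (0.082) and HCF136 (0.084), and CAO near AAE14 (0.077) and WRKY26 (0.078). CHLM lay near CNI1 (0.049) and PIP1A (0.078), and CRD1 near UBP3 (0.039) and TRP1 (0.048). These likenesses describe 6 means that share library effects and carry no test.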

How the data were processed

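The authors deposited 1 table of RPKM for 12 RNA libraries. Per the submitters' processing notes, FastQC, HISAT2, Bowtie2, SAMtools, bedtools and edgeR were used with the TAIR10 genome, without a statement of which tool served which assay. Replicates were not pooled. The 30 samples from ChIP-seq were not analysed here. Per the labels' protocols, RNA was extracted with TRIzol, treated with DNase I and prepared with a NEB kit; strand is not stated.

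Whole reads were recovered from the RPKM steps: with gene length taken as span minus 1 base, 32532 of 32548 features with a length were whole in all 12 libraries (tolerance 0.02 reads), which gave each library's depth. Gene names and lengths came from a RefSeq gene table matched by locus.

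limma 3.58.1 in R 4.3.3 fitted 1 mean per group to log2(RPKM + 1), with a variance trend and Benjamini-Hochberg adjustment over 31454 features, in 10 contrasts. It was tested on simulated data with 200 changed genes, for the WT warm response alone. The simulation held no gene length trend or other library effect, so it cannot say how the fit performs where those are present. Alternatives were pseudocounts of 0.1 and 5, no filter, a filter at mean RPKM 5, quantile normalization, centring on library medians, the groups of the contrast alone, the replicate block, a gene length trend removed (lowess, span 0.3, fitted on genes of mean RPKM 10 or more), voom on recovered reads, and each library left out. The WT and vil1 libraries alone were added after seeing the data.

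The 9 genes and the lists were chosen with earlier results of these data known. From the other lists, the text draws on up to 4 genes per contrast: past the threshold, libraries not overlapping, largest change first. Over all groups, replicate numbers showed little pairing: in 1 of 15 pairs of groups did deviations correlate above 0.1 (-0.249 to 0.22). The WT groups may still be paired. Depth in WT replicates 1 and 2 was 74980888 and 61609938 reads at 22 °C. At 27 °C it was 74954457 and 61533855 reads. CHLH was higher in replicate 1 at both temperatures (by 1.5 and 1.02 on the log2 scale), as were HEMA1, PORB, PORC, CAO and CRD1. GUN4, CHLM and PORA were not. Pairing within WT alone was not tested. Figures were drawn with matplotlib 3.10.9.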

Additional observations from a re-analysis of the deposited data

Results flagged for a closer look

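The effect of arp6 differed between vil1 plants and plants with VIL1 in 7 of the 9 genes, by a limma test of the difference itself (vil1 background minus VIL1 background, log2 scale). The values were -4.97 for CHLH, -3.81 for PORB, -3.47 for PORC, -1.79 for HEMA1, -1.18 for CRD1, -0.76 for CAO and 0.93 for GUN4. GCN2, which overlaps GUN4, had 0.59. For CHLH, PORB and PORC arp6 libraries lay above WT and arp6vil1 libraries below vil1. With a gene length trend removed CHLH had -2.61, HEMA1 -0.84 and GUN4 0.60, all still past the threshold. CAO had 0.40 with a gene length trend removed, and the call was lost with quantile normalization (-0.42) and median centring (-0.40). Since 75.2% of all features passed this test, passing it does not set the genes apart. An effect of genotype cannot be told apart here from the way the arp6 and arp6vil1 libraries differed as a whole.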

How the results depend on the processing

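Over the settings other than leaving out a library, 878 changes of single genes kept their direction and side of the threshold, 28 lost the call, 17 gained it and 11 turned sign with a call on either side; sign changes with no call on either side were counted as kept. With 1 library left out these were 1029, 31, 20 and 0. The sign turned for PORA with quantile normalization (0.36 in arp6 over WT, -0.22 in arp6vil1 over arp6, -0.62 in the difference of arp6 effects), with median centring (0.64 over WT, 0.35 over vil1) and with the length trend removed (0.12 over vil1). It turned for CAO with the length trend removed (0.48 in arp6vil1 over arp6, 0.40 in the difference), for CHLM in arp6vil1 over arp6 with median centring (0.42) and with the length trend removed (0.22), and for GUN4 in arp6vil1 over vil1 with median centring (0.12). The cause was not tested.

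The number of the 9 genes called in WT at 27 over 22 °C was 4, and 1 with the WT libraries alone and 2 with the length trend removed. For vil1 at 27 over 22 °C it was 0, and 2 with the vil1 libraries alone. For vil1 over WT at 22 °C it was 1, 0 without a filter, with those groups alone and with the WT and vil1 libraries alone, and 3 with a mean RPKM of 5 or more, the length trend removed or voom. For arp6vil1 over WT it was 7, and 3 with median centring. With 1 library left out the counts ran from 1 to 7 in WT at 27 over 22 °C, 0 to 0 in vil1, 0 to 6 in the difference of warm responses, 0 to 6 and 0 to 0 in vil1 over WT at 22 and 27 °C, 6 to 9 in arp6 over WT, 7 to 8 in arp6vil1 over WT and over arp6, 8 to 9 over vil1, and 7 to 7 in the difference of arp6 effects. A lone library left in a group is assumed to vary like the other groups.

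With the replicate block the counts were 4, 0, 0, 1, 0, 7, 7, 8, 8 and 7, in the order WT warm response, vil1 warm response, their difference, vil1 over WT at 22 and 27 °C, arp6 over WT, arp6vil1 over WT, over arp6 and over vil1, and the difference of arp6 effects; the only call it changed was that of PORA in arp6vil1 over vil1 (-0.38, adjusted p = 0.0602). Scaling moved the split of calls over all features: in arp6 over WT 6466 were higher and 19423 lower as deposited, and 9783 and 9094 with quantile normalization; in arp6vil1 over WT 1543 and 19245, and 14258 and 4466 with median centring; in arp6vil1 over arp6 12917 and 11964, and 18549 and 8342 with median centring; in arp6vil1 over vil1 2251 and 15992, and 15345 and 5841 with median centring; in WT at 27 over 22 °C 5328 and 1137, and 1186 and 3160 with median centring. On recovered reads voom called 24488 of 29871 features in arp6 over WT, 20341 in arp6vil1 over WT, 24191 in arp6vil1 over arp6 and 7022 in WT at 27 over 22 °C. PORA, at 17 to 277 reads, stood at percentiles 11 to 30.7 of coding genes, and whether depth or background set its level was not tested.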
